A study of Mus musculus with 8 samples.

Results

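*Ctrb1*, *Ctrc* and *Ctrl* (chymotrypsins), *Cela1*, *Cela2a* and *Cela3b* (elastases) and *Cpa1* and *Cpb1* (carboxypeptidases) encode digestive proteases of the pancreas. They are 8 of the 19945 genes in the single-cell count table of this study. They were chosen by name as a family of functions, with earlier results of these data known. All 8 passed the minimum of 100 unique molecular identifiers (UMIs, each standing for 1 captured transcript) in every comparison that counts genes past a ratio. They were followed in 6959 cells of islet preparations, by cell class and by library.

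Acinar cells make these enzymes as inactive zymogens, store them in granules and release them into the ducts. In the gut, trypsin activates them: chymotrypsins cut after large hydrophobic and aromatic residues, elastases often but not always after small ones, and carboxypeptidases A and B remove residues from the C-terminal end, CPA1 preferring hydrophobic and CPB1 basic residues. Because acinar transcripts of this kind are so abundant and the cells break easily, their RNA also floats free in dissociated pancreas and is caught with cells that do not make it.

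The study compared wild-type mice given PF562271, an inhibitor of focal adhesion kinase (FAKi), at 50 mg/kg by oral gavage 2 times a day for 3 weeks with mice given vehicle. The mice were 6 to 12 weeks old at the start, and their strain in this experiment is not stated in the sources used here. After the last dose 10 days passed before islets were isolated with collagenase, hand-picked and pooled from 5 mice a group, so that each group is 1 library (10x Genomics 3′ chemistry, 4 lanes each, which the table does not separate). With 1 library a group there is no replicate check, no test is given, and a ratio compares 2 libraries. The intervals are exact 95% intervals (Poisson for levels, binomial for shares and ratios) and cover counting error only, not differences between mice or preparations.

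The vehicle library held 3776 cells and the FAKi library 3183, with a median of 10101.5 and 13688 UMIs per cell; 4 cell barcodes occurred in both. The deposited annotation places the cells in 12 types, here split by cluster number into 17 classes, of which 2 are acinar. Most labels matched their markers, but the δ-cell class of cluster 8 held mainly *Ppy* (278292 CPM in the vehicle library, against 6909 CPM of *Sst*), and the 28 cells annotated as T cells in the FAKi library held *Cd3d* at 24.4 CPM, against 371 CPM in the vehicle library. The 9 B cells of the FAKi library held *Cd79a* at 299.7 and *Ms4a1* at 143 CPM, against 2786 and 1070 CPM with vehicle.

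Positions are those of the GENCODE annotation of GRCm38. *Cela3b* (chr4:137420999-137430540) neighbours its close copy *Cela3a*, and of the 90-base stretches in the last 500 bases of the *Cela3b* transcript, 11.4% also occur in *Cela3a*. Reads there cannot be told apart between the copies, and *Cela3a* itself was counted with only 14 vehicle and 28 FAKi UMIs in acinar cluster 2. *Ctrc* (chr4:141814962-141846359) is drawn as overlapping *Cela2a* (chr4:141814962-141826160) through 1 of its 5 transcripts, a decay-prone readthrough that shares 305 exon bases with *Cela2a*; both protein-coding *Ctrc* transcripts share none. How reads in that overlap were assigned is not stated in the sources used here, and levels of *Ctrc* and *Cela2a* are uncertain to that extent. *Ctrb1* (chr8:111686519-111691010) and *Ctrl* (chr8:105932003-105933862) lie on one chromosome, and *Cela1* is at chr15:100674421-100687921, *Cpa1* at chr6:30639218-30645363 and *Cpb1* at chr3:20248264-20275733.

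The promoters of *Cela1* and *Cela3b* are shown because of their proportions among the 8 genes. The share of *Cela3b* was lower in the FAKi library in every cell class, with overlapping intervals in some. *Cela1* parted from the other members in one of the classes. Sequences are the 150 bases before the RefSeq start of each gene (build GRCm38.p6, minus strand of the chromosome, printed 5′ to 3′); 7 of the 8 genes had an entry, and *Ctrc* did not. GENCODE begins *Cela2a* further upstream than RefSeq does, so its window, with its TTTCCC match, lies in a GENCODE exon and is not printed; the end of the *Cela3b* window also overlaps the first GENCODE exon, which begins at 137430540. Capitals mark letters searched on both strands in the 250 bases before the start: the E box CACCTG and the TC box TTTCCC, which together form the element that binds PTF1, the acinar transcription factor complex, then AAGGTCA, a motif of nuclear receptors, and the TATA box TATAAA. No match overlapped another.
Cela1, chr15:100687921-100688070: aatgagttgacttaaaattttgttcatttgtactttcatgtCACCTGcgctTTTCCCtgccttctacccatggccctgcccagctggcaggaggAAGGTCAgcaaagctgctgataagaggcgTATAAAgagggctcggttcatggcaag
Cela3b, chr4:137430521-137430670: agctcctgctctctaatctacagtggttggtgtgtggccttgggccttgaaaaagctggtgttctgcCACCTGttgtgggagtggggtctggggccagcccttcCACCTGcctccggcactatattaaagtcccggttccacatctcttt

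CACCTG was found in 5 of the 7 promoters (*Cpb1*, *Cela3b*, *Cela2a*, *Ctrl* and *Cela1*), against 17.1% of 27025 mouse promoters of the same length. TTTCCC was found in 4 (*Cela2a*, *Cpa1*, *Ctrb1* and *Cela1*), against 21.9% of all promoters. AAGGTCA and TATAAA were each found in *Cela1* alone of the 7, against 4.05% and 12.97% of all. In *Cela1* the E box stood at -109 to -104 and the TC box at -99 to -94 from the start, on the same strand and 4 bases apart. CACCTG followed by TTTCCC at a spacing of 3 to 7 bases, a range chosen after this promoter was seen, occurred in 11 of the 27025 promoters (0.0407%) and in none of the other 6. In *Cela3b* both matches were E boxes, at -83 to -78 and -46 to -41. These are matches of letters in a fixed window and not measured binding sites.

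In both libraries the 8 genes were highest in acinar cluster 2, the deeper of the 2 acinar classes, where their UMIs made up 34.8% of all UMIs with vehicle (347762 CPM, interval 346745 to 348782) and 34.7% with FAKi (347493 CPM, interval 346553 to 348435). CPM is the UMIs of a gene per 1000000 UMIs of the same cells. This cluster comprised 86 cells with vehicle and 114 with FAKi, with medians of 7931 and 7280.5 UMIs per cell. In acinar cluster 1, with 161 and 297 cells and medians of 1480 and 1140 UMIs, the 8 genes came to 232760 CPM (interval 231171 to 234357) with vehicle and 193683 CPM (interval 192678 to 194692) with FAKi. Acinar cells were 6.54% of the vehicle cells and 12.9% of the FAKi cells, and they held 83.1% and 83.0% of all UMIs of the 8 genes.

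*Ctrb1*, the main chymotrypsinogen, was the most abundant of the 8 in both acinar classes of both libraries. In acinar cluster 2 it stood at 134183 CPM with vehicle and 144792 CPM with FAKi, and in acinar cluster 1 at 81096 and 76359 CPM. Since 3′ counting gives about 1 UMI per captured transcript whatever its length, levels of different genes are compared here without division by length. *Cela1*, the pancreatic elastase of family 1, came next with 47879 and 43805 CPM in acinar cluster 2, followed by *Cela3b* (39384 and 33524 CPM) and, with vehicle, *Cela2a* (34861 and 28632 CPM), which with FAKi was close to *Cpa1*. *Cpa1* (29973 and 28814 CPM) and *Cpb1* (29947 and 27517 CPM) were nearly level with each other in this class. The intervals of *Cpa1* and *Cpb1* overlapped with vehicle and did not with FAKi.

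*Ctrl*, a chymotrypsin-like protease, and *Ctrc*, the chymotrypsin that also cuts trypsinogen, were the lowest of the 8 in the acinar classes. In acinar cluster 2, *Ctrl* stood at 18613 CPM with vehicle and 19498 CPM with FAKi. *Ctrc* stood at 12921 and 20911 CPM, above *Ctrl* with FAKi in summed counts but not per cell. With each cell thinned to 1000 UMIs, *Ctrl* stood at 22167 and *Ctrc* at 18886 CPM with FAKi, and in the median cell *Ctrl* held 6.51% and *Ctrc* 5.68% of the 8 genes, so *Ctrl* was the higher one in both libraries by these measures. In acinar cluster 1, *Ctrl* was at 11167 and *Ctrc* at 10164 CPM with vehicle and at 11155 and 11641 CPM with FAKi. Without the 5% of cells with the most UMIs of the 8 genes, *Ctrl* held 6.14% and *Ctrc* 5.99% of them with FAKi, so the order of the pair there depended on a few cells.

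**Figure D1:**
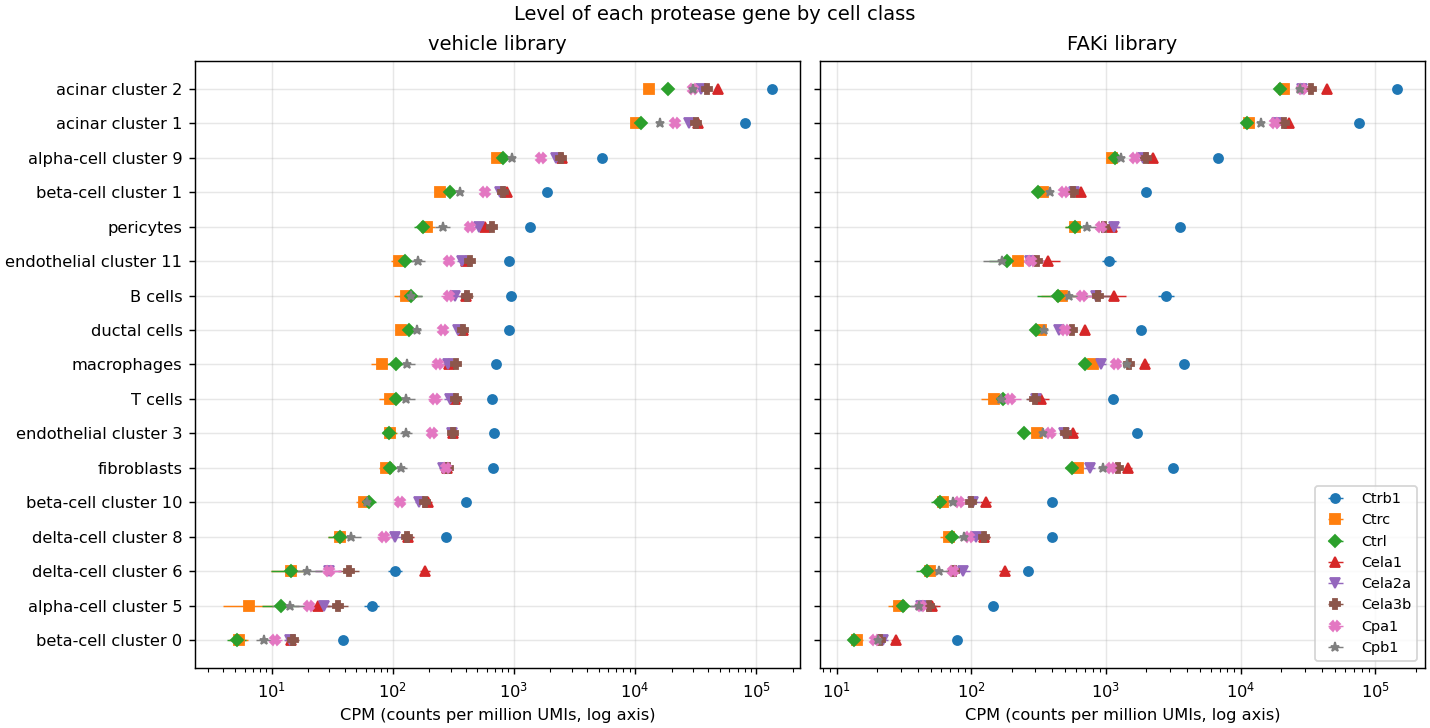
Level of each of the 8 genes (x axis, CPM on a log axis) in the 17 cell classes (y axis, ordered by the summed level in the vehicle library), with 1 panel for each library and bars for the exact Poisson 95% interval. Acinar clusters 2 and 1 are on top, with *Ctrb1* at 134183 and 144792 CPM in acinar cluster 2, and *Cela1* lies apart from the other genes in δ-cell cluster 6.

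In summed counts of acinar cluster 2 the chymotrypsins parted in direction from the elastases and carboxypeptidases. The sum of the 8 genes hardly differed there between the libraries (FAKi/vehicle ratio 0.999, interval 0.995 to 1.00). The chymotrypsins were above the vehicle level: *Ctrc* at 1.62 times (interval 1.59 to 1.65), *Ctrb1* at 1.08 times (interval 1.07 to 1.09) and *Ctrl* at 1.05 times (interval 1.03 to 1.07). The elastases were below it, *Cela1* at 0.915 (interval 0.905 to 0.925), *Cela3b* at 0.851 (interval 0.841 to 0.862) and *Cela2a* at 0.821 times (interval 0.811 to 0.832). Of the carboxypeptidases, *Cpa1* stood at 0.961 (interval 0.948 to 0.975) and *Cpb1* at 0.919 times (interval 0.906 to 0.932). *Ctrc* was the single one of the 8 past a ratio of 1.5 upward, where 8.21% of the 548 genes with at least 100 UMIs in both groups together lay, and none lay past 1.5 downward, where 3.47% of the genes lay. Over alternatives of scaling and cells, *Ctrc* in this cluster ranged from 1.51 to 1.72 times. *Cpa1* turned to 1.04 times when the CPM of single cells were averaged and to 1.05 times with cells thinned to 1000 UMIs, and *Cpb1* to 1.01 times when they were averaged.

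In acinar cluster 1 the 3 elastases stood lowest against vehicle: *Cela2a* at 0.661 (interval 0.644 to 0.679), *Cela3b* at 0.662 (interval 0.646 to 0.678) and *Cela1* at 0.690 times (interval 0.674 to 0.707). *Cpa1* and *Cpb1* were at 0.844 and 0.877 times, and *Ctrb1* at 0.942 times (interval 0.928 to 0.955). *Ctrl* did not differ beyond counting error (ratio 0.999, interval 0.962 to 1.04), and *Ctrc* was higher (1.15 times, interval 1.10 to 1.19). Past a ratio of 1.5 downward were *Cela2a* and *Cela3b*, 2 of the 8, against 8.38% of the 370 genes with enough UMIs, and none of the 8 was past it upward, against 11.6% of the genes.

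The levels in acinar cluster 1 moved with the hormone transcripts that its droplets hold. *Ins1*, *Ins2* and *Iapp* summed to 157221 CPM with vehicle and 251812 CPM with FAKi, whereas acinar cluster 2 held 6971 and 9525 CPM of them, and all 3 genes had UMIs in each of these groups. With 7 hormone genes taken out of the total, *Cela2a* was at 0.755, *Cela3b* at 0.756 and *Cela1* at 0.788 times, none past 1.5, and *Ctrb1* turned to 1.08 times. A setting added once the data had been seen subtracted mean UMIs per endothelial or immune cell. It took those of the 8 genes from their counts and from the total. It also took those of the 7 hormone genes from the total. With it the 8 genes together turned from 0.832 to 1.28 times. The elastases came to between 1.02 and 1.04 times and the chymotrypsins to between 1.46 and 1.74 times. For the 8 genes that mean rests on few cells: 48 vehicle cells held 65.9% and 19 FAKi cells 60.6% of their UMIs. Subtracting the median per cell of the 8 genes alone, with the hormone genes left in the total, kept the 8 genes together at 0.826 times. The elastases were then between 0.648 and 0.679 times. These settings differ both in the average used and in the hormone genes, and the part of each was not tested. So the direction of a level in acinar cluster 1 depended on the scaling. The elastases lay below the chymotrypsins under both subtractions; a change of the total moves all 8 ratios alike and cannot alter their order.

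**Figure D2:**
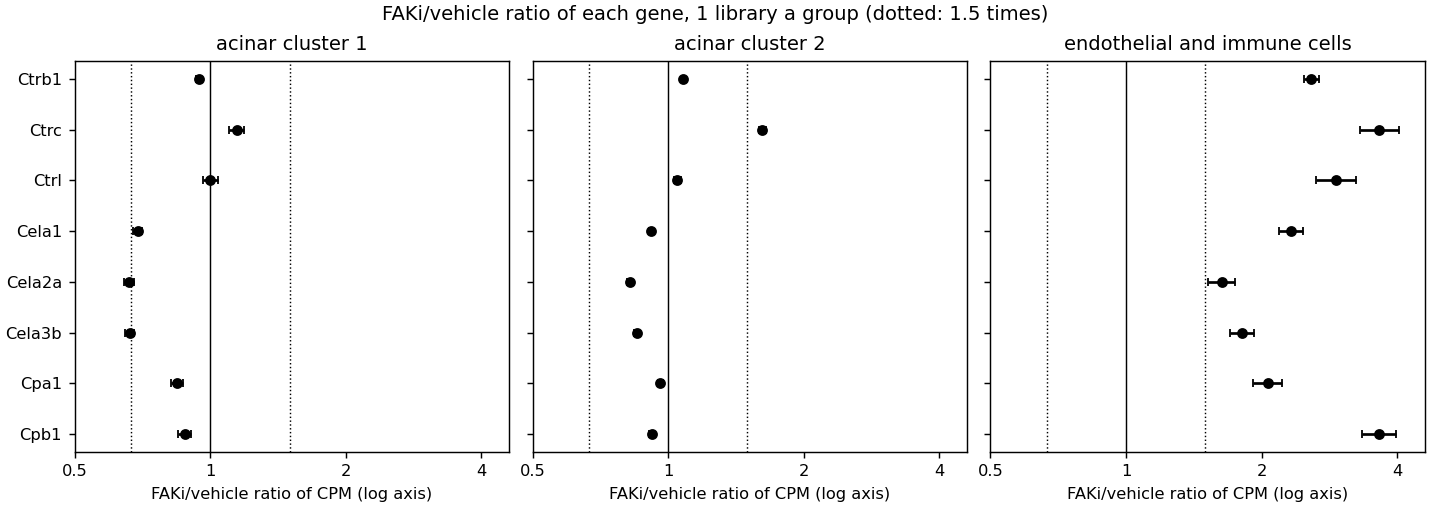
FAKi/vehicle ratio of CPM (x axis, log scale, with the exact 95% interval) of each gene in acinar cluster 1, acinar cluster 2 and the endothelial and immune cells; the dotted lines mark 1.5 times in either direction. In acinar cluster 2 *Ctrc* is the single gene past the dotted line (1.62 times), in acinar cluster 1 *Cela2a* and *Cela3b* are (0.661 and 0.662 times), and all 8 are past it in endothelial and immune cells.

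Shares among the 8 genes do not depend on the rest of the RNA in a droplet. In acinar cluster 2, chymotrypsins made up 47.7% of the 8 genes' UMIs with vehicle and 53.3% with FAKi, elastases 35.1% and 30.5%, and carboxypeptidases 17.2% and 16.2%. Chymotrypsins of acinar cluster 1 made up 44.0% and 51.2%, elastases 39.9% and 32.2%, and carboxypeptidases 16.1% and 16.6%. The same shift from elastases to chymotrypsins was present in every class of the annotation: the elastase share was lower and the chymotrypsin share higher in the FAKi library in 17 of 17 classes. Leaving δ-cell cluster 6 aside, elastases lay between 35.1% and 44.0% in 16 classes with vehicle and between 30.5% and 36.9% with FAKi. Carboxypeptidases had no such common direction, with a higher share in 13 classes and a lower one in 4. The classes of a library share their free RNA, so these 17 pairs of values are not 17 independent observations.

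Among single genes, the share of *Ctrc* was higher in the FAKi library in 17 of 17 classes, with a median of 4.36% over the 15 nonacinar classes with vehicle and 6.31% with FAKi; in acinar cluster 2 it was 3.72% (interval 3.66 to 3.77%) and 6.018% (interval 5.95 to 6.08%). *Cela3b* was lower in 17 of 17 classes, with medians of 14.7% and 10.96% in the nonacinar classes. *Cela1* was less uniform, lower in 13 classes and higher in 4 (12 and 5 without the 5% of cells with the most UMIs of the 8 genes), and *Cpa1* was lower in 14 and higher in 3 (15 and 2 without them). *Ctrl* was higher in 17 classes, though in 15 without those cells. *Ctrb1* was higher in 15 of 17 (17 without those cells) and *Cela2a* lower in 16 (14 without them). *Cpb1*, which made up 8.61% of the 8 genes in vehicle acinar cluster 2 and 6.94% in vehicle acinar cluster 1, was higher in the FAKi library in 16 classes (14 without those cells) but lower in acinar cluster 2 (7.92%).

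**Figure D3:**
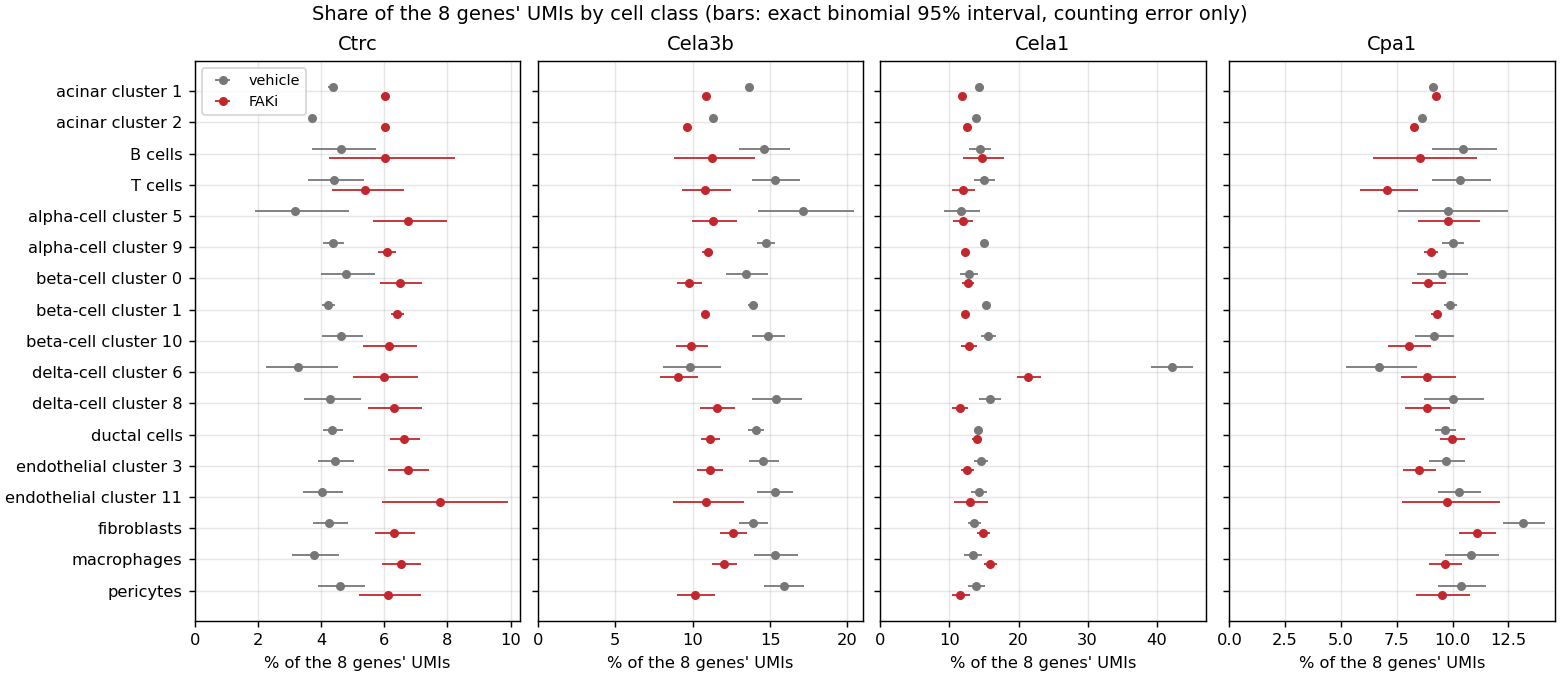
Share of the 8 genes' UMIs (x axis, percent, with the exact binomial 95% interval) held by *Ctrc*, *Cela3b*, *Cela1* and *Cpa1* in each of the 17 classes of the vehicle (grey) and FAKi (red) libraries. *Ctrc* lies further right in the FAKi library in all 17 classes and *Cela3b* further left; *Cela1* stands at 42.2% and 21.4% in δ-cell cluster 6, and *Cpa1* at 13.2% in vehicle fibroblasts.

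δ-cell cluster 6, the class with the highest *Sst* (213487 CPM with vehicle and 219821 CPM with FAKi), differed from every other class in *Cela1*. There *Cela1* made up 42.2% of the 8 genes' UMIs with vehicle (428 of 1015, interval 39.1 to 45.3%) and 21.4% with FAKi (interval 19.7 to 23.2%), against medians of 14.4% and 12.7% over the nonacinar classes. Measured against the other 7 genes and relative to acinar cluster 1 of the same library, *Cela1* was 4.38 times over-represented (interval 3.97 to 4.83) with vehicle and 2.03 times (interval 1.85 to 2.23) with FAKi. In α-cell cluster 5, of like depth, the same ratio was 0.793 (interval 0.617 to 1.00) and 1.01.

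The level of *Cela1* in δ-cell cluster 6 was 186 CPM (interval 169 to 204) with vehicle and 178 CPM (interval 162 to 195) with FAKi, a ratio of 0.958 (interval 0.838 to 1.10). The other 7 genes of this class stood at 1.73 to 3.47 times their vehicle level in the FAKi library; *Ctrb1*, for one, was at 104 and 264 CPM. With each cell thinned to 1000 UMIs, which weights cells equally, *Cela1* stood at 149 CPM with vehicle and 236 CPM with FAKi, so the measures part on whether its level differed between the libraries. *Ctrb1* was at 101 and 210 CPM by that measure. *Cela1* had a UMI in 60.1% of the vehicle cells (interval 52.7 to 67.2%) and 66.2% of the FAKi cells (interval 59.0 to 72.8%), with a median of 1 and at most 27 and 21 UMIs in a cell, so its UMIs were spread over many cells. Of the 51 vehicle cells without a UMI of the other 7 genes, 26 held *Cela1* (51.0%), against 8 of 41 such cells in α-cell cluster 5 (19.5%) and 12 of 77 in endothelial cluster 3 (15.6%). Vehicle ductal cells had 29 of 95 (30.5%). With FAKi few cells lacked the other 7 genes: 2 of 6 in δ-cell cluster 6 held *Cela1*, and 11 of 24 in β-cell cluster 0. Without the 5% of cells with the most UMIs of the 8 genes the *Cela1* share of δ-cell cluster 6 was 45.2% and 23.6%.

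In cells thinned to 1000 UMIs, *Cela1* was found in 12.8% (interval 8.35 to 18.4%) of vehicle and 21.0% of FAKi cells of δ-cell cluster 6, against 1.08% (interval 0.131 to 3.83%) and 5.64% in α-cell cluster 5. Endothelial and immune cells, a background for acinar transcripts, held it in 15.04% (interval 12.8 to 17.5%) and 30.4%. At this fixed depth the share of δ cells with a *Cela1* UMI was not above that of the endothelial and immune cells. The δ cells were deeper (medians of 12519.5 and 12747 UMIs, against 5186 and 4883), so thinning removed more of their UMIs. Without thinning, 35.0% and 57.9% of the endothelial and immune cells held *Cela1*, below the shares of δ-cell cluster 6 given above. With FAKi the intervals overlapped (52.6 to 63.0% in the endothelial and immune cells). The measures thus part on detection, and what set the class apart was the proportion of *Cela1* to the other members. The δ-cell class of cluster 8, with mainly *Ppy*, had a *Cela1* share of 15.8% and 11.5%.

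*Cpa1* in fibroblasts was a weaker departure of the same kind. It made up 13.2% of the 8 genes' UMIs in vehicle fibroblasts (interval 12.3 to 14.1%) and 11.1% in FAKi fibroblasts (interval 10.3 to 12.0%), the highest *Cpa1* share of any nonacinar class in each library, against medians of 10.0% and 9.03%. Relative to acinar cluster 1, its proportion to the other 7 genes was 1.51 times (interval 1.39 to 1.63) and 1.22 times (interval 1.13 to 1.32). Without the 5% of fibroblasts with the most UMIs of the 8 genes the vehicle share was 15.3% and the FAKi share 10.5%.

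Outside the acinar classes, most cells held UMIs of the 8 genes: at least 1 was found in 76.2% to 96.4% of the cells of a class except α-cell cluster 9 (100%) with vehicle, and in 88.9% to 100% with FAKi. In 13 of the 15 nonacinar classes the median cell of the vehicle library held 2 to 3 UMIs of the 8 genes together, and the median cell of the FAKi library 5 to 10.5. The FAKi median was the higher one in those 13 classes and the lower one in the other two, β-cell cluster 1 (84 and 71.5 UMIs) and α-cell cluster 9 (130 and 108 UMIs). The acinar share of cells, 6.54% and 12.9%, moved with this difference, and its part in it was not tested.

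**Figure D4:**
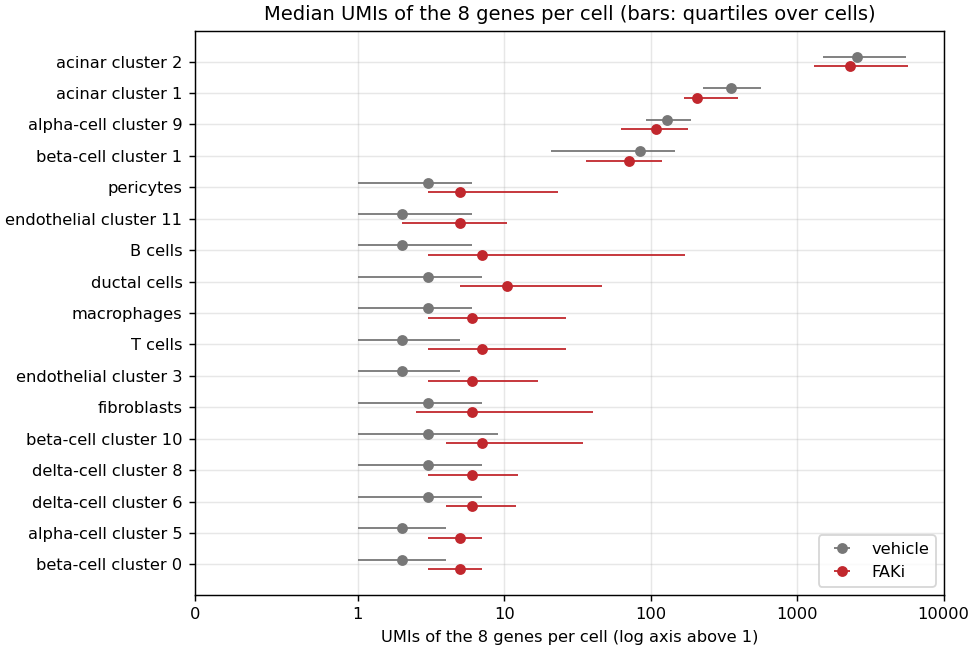
Median UMIs of the 8 genes per cell (x axis, log scale above 1; bars span the quartiles over cells) in the 17 classes of the vehicle (grey) and FAKi (red) libraries. In 13 nonacinar classes the vehicle medians are 2 to 3 and the FAKi medians 5 to 10.5, and α-cell cluster 9 and β-cell cluster 1 stand between these classes and the acinar ones.

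In endothelial and immune cells (953 vehicle and 361 FAKi cells, with medians of 5186 and 4883 UMIs), which do not make pancreatic zymogens, all 8 genes were present. Together they stood at 2354 CPM with vehicle and 5577 CPM with FAKi, a ratio of 2.37 (interval 2.32 to 2.42), with a median of 2 and 6 UMIs per cell. At least 1 UMI of the 8 was held by 80.6% and 96.4% of these cells, and by 43.1% and 63.0% after thinning to 1000 UMIs, which left out 29 vehicle and 26 FAKi cells. In these pooled cells all 8 genes were past a ratio of 1.5 upward, where 4.19% of 8677 genes lay. By class, the ratio of the sum was 2.12 in endothelial cluster 3 (interval 2.05 to 2.21), 2.79 in B cells and 1.27 in T cells (interval 1.19 to 1.35). In endothelial cluster 11 the sum stood at 2811 and 2864 CPM (ratio 1.02, interval 0.941 to 1.10), with *Cela2a* at 0.731 and *Cela3b* at 0.721 times. That value rested on few cells: the 5% of vehicle cells with the most held 60.9% of the UMIs, the median cell held 2 and 5 UMIs, and thinning gave 2632 and 4725 CPM, with *Cela2a* at 339 and 425 CPM and *Cela3b* at 374 and 550 CPM. In the pool the ratios of summed counts ran from 1.63 for *Cela2a* and 1.81 for *Cela3b* to 3.64 for *Cpb1* and 3.65 for *Ctrc*. Thinning changed this order in part. *Cela2a* stayed lowest in the pool, but *Cpa1* (350 and 639 CPM) then had a lower ratio than *Cela3b* (468 and 884 CPM). In endothelial cluster 11 thinned *Cpb1* had the lowest ratio (187 and 175 CPM).

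A few cells carried much of this RNA. The 5% of vehicle endothelial and immune cells with the most UMIs of the 8 genes (48 cells) held 65.9% of them, and the 19 such FAKi cells held 60.6%. In FAKi macrophages 1 cell of 55 held 77.8% of the UMIs, 4868 in all, and the class level was 12313 CPM against 2174 CPM in vehicle macrophages. A fibroblast of the FAKi library held 2486 UMIs, 43.4% of its class. Without the top 5% of cells the endothelial and immune ratio was 2.68. In classes where less rested on 1 cell, endothelial cluster 3 stood at 2147 and 4561 CPM and α-cell cluster 5 at 207 and 431 CPM. Ductal cells stood at 2686 and 4999 CPM, with 30.6% of the FAKi UMIs in 1 cell.

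β-cell cluster 0, the deepest β-cell class, had the lowest level of the 8 genes of any class: 112 CPM (interval 108 to 117) with vehicle and 217 CPM (interval 211 to 223) with FAKi, below the endothelial and immune cells of the same library. Those cells were far shallower, with medians of 5186 and 4883 UMIs against 34677 and 34237. Per median cell, UMIs of the 8 genes were nearly level: 2 and 5 in β-cell cluster 0, and 2 and 6 in the endothelial and immune cells. *Ctrb1* stood there at 38.8 and 78.9 CPM. In β-cell cluster 1 the 8 genes came to 5807 and 5303 CPM, and in β-cell cluster 10 to 1245 and 1001 CPM. Cluster 1 was thus 51.7 times (interval 49.6 to 53.8) above cluster 0 with vehicle and 24.4 times (interval 23.7 to 25.1) with FAKi, and cluster 10 was 11.1 and 4.61 times above it. All 8 genes took part: over cluster 0, single genes were 41.6 to 61.6 times higher in cluster 1 of the vehicle library and 18.8 to 27.1 times in the FAKi library.

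The level of the 8 genes in β-cell cluster 1 was shared by most of its cells. The median cell held 84 UMIs of the 8 genes with vehicle and 71.5 with FAKi, against 2 and 5 in β-cell cluster 0, and the 5% of cells with the most held 38.7% and 34.4%. β-cell cluster 10 differed in this respect: its median cell held 3 and 7 UMIs. α-cell cluster 9 had the same feature as β-cell cluster 1, with 16678 and 18126 CPM, 80.7 and 42.0 times the level of α-cell cluster 5. The proportions of the 8 genes in β-cell cluster 1 were close to those of the other nonacinar classes of the same library, with *Ctrb1* at 32.2% and 37.2% and elastases at 42.4% and 34.0%. Whether these UMIs are made in the β-cells or come from acinar cells or free RNA was not tested.

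Acinar cluster 1 stood below acinar cluster 2 for each of the 8 genes in both libraries. In the vehicle library the ratio ran from 0.539 (interval 0.524 to 0.554) for *Cpb1* to 0.806 (interval 0.790 to 0.823) for *Cela3b*, and 3 of the 8 were past 1.5 downward (*Cpb1*, *Ctrl* and *Ctrb1*), against 10.8% of 369 genes. In the FAKi library it ran from 0.514 for *Cpb1* to 0.646 for *Cela2a*, and 8 of 8 were past 1.5 downward, against 14.3% of 567 genes. With the 7 hormone genes taken out of the total none of the 8 was past 1.5 with FAKi (0.694 to 0.872 times), and *Cpb1* alone was with vehicle (0.639 times). The setting with the mean background subtracted also takes the mean hormone UMIs out of the total, and the part of each step was not tested. Under it the 8 genes together were at 0.817 times with vehicle and 0.980 times with FAKi. With FAKi, *Ctrl*, *Cela2a*, *Cela3b* and *Cpa1* turned to between 1.01 and 1.14 times. The clustering was done on expression, which may include these 8 genes, so the differences are a description of the classes.

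Within acinar cluster 2 the share of a cell's UMIs held by the 8 genes ranged from 21.0% to 46.6% with vehicle (median 34.1%) and from 20.7% to 45.7% with FAKi (median 35.4%). The range was wider in acinar cluster 1, from 1.04% to 36.9% (median 24.4%) and from 0.773% to 40.4% (median 18.6%). The mix of the 8 genes varied from cell to cell of acinar cluster 2 by more than counting gives. The standard deviation of the *Ctrb1* share over cells was 7.33 percentage points with vehicle and 8.24 with FAKi, 6.75 and 7.23 times that expected from counting alone. *Cela2a* followed with 6.64 and 6.30 times, its quartiles lying at 6.85% and 14.7% of the 8 genes with vehicle and at 5.63% and 12.4% with FAKi. *Ctrc* had the lowest ratios, 3.44 and 2.31, on a measure that grows with the abundance of a gene. Acinar cluster 1 had less excess: with fewer UMIs per cell, the highest of these ratios was 2.09 (*Ctrb1*, vehicle).

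**Figure D5:**
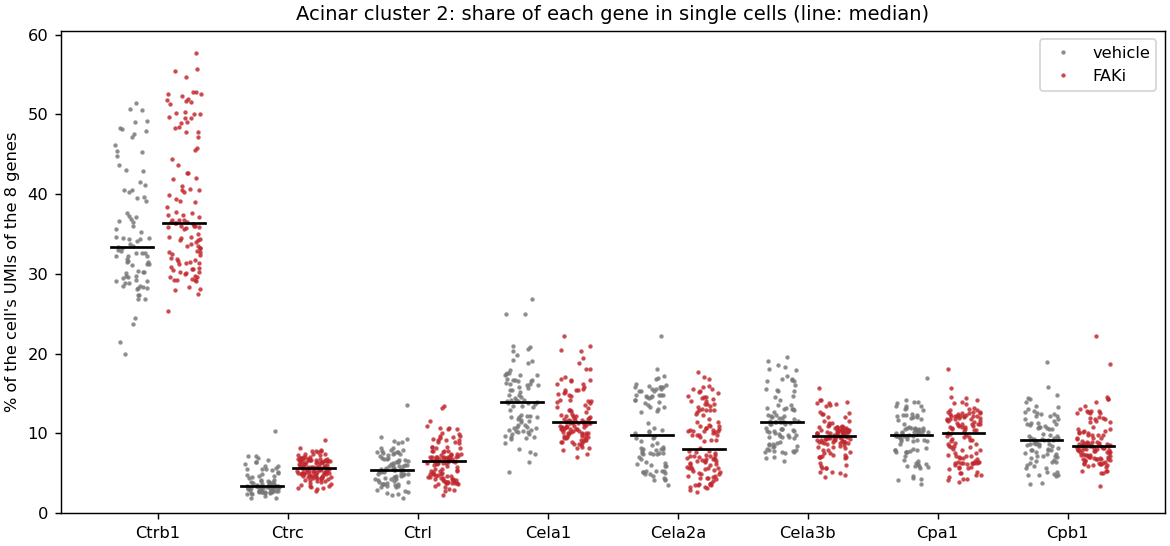
Share of each gene among the 8 genes' UMIs of a cell (y axis, percent) in the 86 vehicle (grey) and 114 FAKi (red) cells of acinar cluster 2; each point is a cell and the black line the median over cells. The median of *Ctrc* is 3.33% with vehicle and 5.68% with FAKi, and those of *Cela1*, *Cela2a* and *Cela3b* are lower in the FAKi library.

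Among these cells some members went together. Over the 86 vehicle and 114 FAKi cells, the shares of *Cela2a* and *Cpa1* had Spearman correlations of 0.40 and 0.57, those of *Cela2a* and *Ctrl* 0.42 and 0.51, and those of *Cela1* and *Cela3b* 0.40 and 0.38. *Ctrl* and *Cela3b* ran opposite (-0.70 and -0.30), as did *Cela1* and *Cela2a* (-0.49 and -0.25). The elastases were therefore not 1 block across cells, although they stood together between the libraries. Shares of a fixed whole push each other down, and the cells of a library share a preparation, so these are descriptions. The single-cell medians of *Ctrc* and the elastases differed between libraries in the same direction as the sums, *Ctrc* at 3.33% and 5.68%, *Cela1* at 14.0% and 11.4%, *Cela2a* at 9.83% and 7.97% and *Cela3b* at 11.4% and 9.64% of the 8 genes. *Cpa1* did not: its median was 9.83% and 10.00%, its summed share 8.62% and 8.29%.

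Across the 33 groups of a class and a library with at least 20 cells, each of the 8 genes followed their sum, with Pearson correlations of log2(CPM + 1) from 0.993 for *Cela1* to 0.999 for *Ctrb1*. Each gene is part of that sum, so these values are high in part by construction. Of 14084 other genes with at least 100 UMIs, the 10 most like the sum were *Prss2* (r = 0.999), *Pnlip*, *2210010C04Rik*, *Sycn*, *Cel*, *Try4*, *Reg1*, *Pnliprp1*, *Rnase1* and *Clps* (0.987). *Prss2* and *Try4* encode trypsinogens, and *Pnlip*, *Cel* and *Clps* a lipase, the carboxyl ester lipase and colipase. The groups of a library share their preparation and its free RNA.

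The wider exocrine list of 35 genes, of which 32 are in the table, gives the setting in the acinar classes. For acinar cluster 1, 21 had at least 100 UMIs; 2 were past 1.5 downward in the FAKi library (8.38% of all genes) and 0 upward (11.6% of all genes), and the median log2 ratio was -0.27, against -0.22 for the 8 genes and -0.03 for all genes tested. The lowest was *Try10*, a trypsinogen (ratio 0.536, interval 0.454 to 0.633), and the highest *Amy2a5*, an amylase (1.42, interval 0.925 to 2.25). In acinar cluster 2, 24 had enough UMIs; 0 were past 1.5 downward (3.47% of all genes) and 2 upward (8.21% of all genes), *Prss3* and *Rbpjl*, and the median was 0.03, against -0.09 for the 8 genes and 0.06 for all genes. *Prss3*, a trypsinogen, was highest (1.77, interval 1.52 to 2.07), and *Pnliprp1*, a lipase-related protein, lowest (0.766, interval 0.751 to 0.780). *Rbpjl*, a subunit of the PTF1 complex, rested on 81 FAKi and 46 vehicle UMIs (1.51, interval 1.04 to 2.21).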

How the data were processed

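Islet cells of vehicle- and FAKi-treated mice were profiled by 10x Genomics 3′ single-cell RNA-seq. Per the labels and methods, the authors counted UMIs with Cell Ranger (the submitters' processing notes name mm10), chose cell filters with Seurat 3.1, applied SCRAN size factors and scanorama integration, and formed Louvain clusters; the annotation release is not given in the sources used here. The deposited table holds raw UMI counts per gene and cell (19945 genes, 6959 cells, whole numbers), and the deposited cell table holds each cell's library, cluster, cell type and percent of mitochondrial counts. The library named Control was read as vehicle. Lanes cannot be told apart in these tables.

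Counts were summed over the cells of a class (cell type, split by cluster number) and library, and divided by the total (CPM). Log2 ratios used a pseudocount of 1 CPM. Genes counted against a ratio of 1.5 had at least 100 UMIs in both groups together. Intervals are exact at 95%. Thinning drew 1000 UMIs from each cell (seed 0); shallower cells were left out. Doublets were called with scrublet (scanpy 1.11.5), 68 vehicle and 57 FAKi cells, and kept in the values given. The ratio and interval code was tested on simulated counts. All 8 genes were named; further genes were named by likeness over 33 groups and as the extremes of the exocrine list. The 8 genes, the lists and the alternatives were chosen with earlier results of these data known. NumPy 2.4.6, SciPy 1.17.1 and pandas 2.3.3 were used. Gene names changed to dates by a spreadsheet (23) include none of the 8.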

Additional observations from a re-analysis of the deposited data

Results flagged for a closer look

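For 6 of the 8 genes the FAKi/vehicle ratio pointed one way in acinar cluster 1 and the other way in another class, with both counting intervals clear of 1. *Ctrb1* stood at 0.942 in acinar cluster 1 against 1.08 in acinar cluster 2 and 2.58 in the endothelial and immune cells. *Cela1* stood at 0.690 in acinar cluster 1 and 2.32 in the endothelial and immune cells, *Cela2a* at 0.661 and 1.63, *Cela3b* at 0.662 and 1.81, *Cpa1* at 0.844 and 2.06, and *Cpb1* at 0.877 and 3.64. The differences between classes were not tested, since each condition is 1 library and the classes share it.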

How the results depend on the processing

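No paired analysis was possible because each group is 1 library whose lanes the table does not separate; for the same reason no lane was left out. Counting error was small beside the effect of scaling, so values moved past their interval often. In acinar cluster 1 the FAKi/vehicle ratio of the 8 genes (0.832) was 0.849 as a mean over cells, 0.9501 without hormone genes in the total, 0.934 without the 20 most abundant genes, 0.785 in cells under 5% mitochondrial counts and 0.850 when thinned. It turned to 1.07 per UMI of the exocrine list and 1.28 with the mean background subtracted, both chosen after seeing the data. The second of these settings also subtracts the mean hormone UMIs from the total. Both turned *Ctrb1* (1.21 and 1.46), *Cpa1* (1.08 and 1.31) and *Cpb1* (1.13 and 1.31). The second turned *Cela1* (1.04), *Cela2a* (1.02) and *Cela3b* (1.02) as well. *Ctrb1* also turned without hormone genes (1.08) and without abundant genes (1.06), and *Cpb1* without hormone genes (1.00). *Ctrl*, at 0.999 and within counting error of 1, turned as well, for one when thinned (12407 and 12659 CPM). Of 80 alternatives for single genes in this class, 19 went the other way. The cause was not tested.

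In acinar cluster 2 (0.999) the values were 1.03 as a mean over cells, 1.01 without abundant genes and per UMI of the exocrine list, 1.02 thinned and 1.06 with the mean background subtracted. *Cpa1* turned in 3 of these settings (1.04 as a mean over cells, 1.05 thinned, 1.02 with the mean background subtracted) and *Cpb1* as a mean over cells (1.01). Acinar cluster 1 over 2 (0.669 vehicle, 0.557 FAKi) was 0.680 as a vehicle mean over cells, 0.794 and 0.752 without hormone genes, 0.771 and 0.711 without abundant genes, 0.708 in vehicle cells under 5% mitochondrial counts, 0.734 and 0.609 thinned, 0.553 in the FAKi library with the median background subtracted, and 0.817 and 0.980 with the mean background subtracted, where *Ctrl* (1.01), *Cela2a* (1.14), *Cela3b* (1.10) and *Cpa1* (1.10) turned in the FAKi library.

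In endothelial and immune cells (2.37) the ratio was 3 by medians, 2.62 without doublets and 2.68 without the top 5% of cells. β-cell cluster 1 over 0 (51.7 and 24.4) was 65.7 and 31.7 thinned, and 20.3 in the FAKi library without doublets; cluster 10 over 0 (11.1 and 4.61) was 12.2 and 5.68 thinned. Without the top 5% of cells, the *Cela1* share of FAKi δ-cell cluster 6 was 23.6% and the *Cpa1* share of vehicle fibroblasts 15.3%. With genes of at least 20 UMIs, the exocrine list had 4 lower and 2 higher in acinar cluster 1 and 2 lower and 4 higher in acinar cluster 2, where a pseudocount of 10 CPM left 1 higher.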
